A study of Mus musculus with 12 samples.

Results

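The nuclear-encoded subunits of the mitochondrial respiratory chain and of ATP synthase were followed in mouse embryonic fibroblasts (MEFs) that received cardiac transcription factors (TFs). Members were chosen by gene symbol: probe sets annotated with a single symbol that starts with Nduf, Uqcr, Atp5 or Cox followed by a digit from 4 to 8, together with Sdha, Sdhb, Sdhc and Sdhd. The striated muscle isoforms Cox6a2, Cox7a1 and Cox8b were left out of the members and are given separately. Each gene was represented by its brightest probe set. This gave 81 members, read from 153 probe sets, of 12393 genes on the array: 34 subunits of complex I, 4 of complex II, 8 of complex III, 13 of complex IV, 17 of complex V and 5 complex I assembly factors (the Ndufaf genes). Subunits that mitochondrial DNA encodes carry other symbols and are not among the members.

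All cultures were C57BL/6 MEFs that first received a lentivirus for M2rtTA, the transactivator that switches on the delivered genes when doxycycline is present. The negative control received nothing else. TF group 1 also received lentiviruses for GATA4, TBX5 and MEF2C, TF group 2 those factors plus Mesp1 and SMARCD3, and TF group 3 all of these plus MYOCD and SRF. The delivered cDNAs were human except that of Mesp1, which was mouse. Every group, the control included, was kept for 7 days with doxycycline, valproic acid (an inhibitor of histone deacetylases) and extra serum. RNA of whole unsorted cultures was hybridised to Mouse Genome 430A 2.0 arrays, with 3 arrays per group that the labels call biological replicates, so a change of RNA per cell and a change in the make-up of the culture cannot be told apart. The study asked how far each set of factors moves fibroblasts towards a cardiomyocyte programme, and oxidative phosphorylation is the main source of ATP in heart muscle.

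As background, complexes I to IV pass electrons from NADH and succinate to oxygen. All of these but complex II pump protons out of the mitochondrial matrix, and complex V (ATP synthase) lets them flow back to make ATP. Complex I consists of a conserved core, which holds the flavin and iron-sulphur clusters, and many accessory subunits around it. Several subunits of complex IV (cytochrome c oxidase) and the c ring of complex V are encoded by more than 1 gene, with isoforms that differ between tissues.

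The deposited values are linear signals with a trimmed mean of 500 on each array, and the signals below are on that scale. Correlations between arrays of a group lay between 0.960 and 0.966 on the log2 scale. The actin probe sets at the 3′ end read 0.10 to 0.16 log2 units above those at the 5′ end on the TF arrays and 0.041 to 0.068 above on the control arrays, with no overlap, whereas the same difference for Gapdh overlapped (-0.55 to -0.46 and -0.50 to -0.46). The part of this RNA-quality sign in the results was not tested. The replicate SD of the members had a median of 0.068 log2 units and a range from 0.038 to 0.32. Of the 81 members, 72 had a mean log2 signal of 9 or more. Of the 10 fibroblast markers, all were above a log2 signal of 5 in each group, and 5, 2 and 1 of them rose and 2, 4 and 5 fell in TF groups 1, 2 and 3. Their summed signal was 62493 to 65119 in the control, 76459 to 82457 in TF group 1, 61018 to 63471 in TF group 2 and 60534 to 62346 in TF group 3. Summed neuronal markers went from 286 to 309 in the control to 652 to 770.0, 1306 to 1358 and 876 to 955, and epithelial markers from 412 to 514 to 927 to 941, 926 to 1087 and 676 to 781. Summed macrophage markers went from 638 to 723 in the control to 389 to 556 over the TF arrays, and endothelial markers lay between 119 and 215 on all arrays. The part of these cell types in the results on the members was not tested.

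A gene was counted as higher or lower than the control at a Benjamini-Hochberg adjusted p under 0.05 in a limma model of all 12 arrays, with p-values adjusted over 22626 probe sets. On the deposited scale, 36, 37 and 40 of the 81 members were higher than the negative control in TF groups 1, 2 and 3, and 7, 5 and 5 were lower, whereas 1 member (Cox6b2) was higher in each TF group and 61, 36 and 45 were lower when the arrays were scaled to the poly-A spikes. Over all 12393 genes, the share higher was 25.4%, 25% and 24.7% and the share lower was 18%, 19.3% and 19% on the deposited scale. For the spike scale the share of all genes was not counted. The median log2 change of all genes there was -0.83, -0.68 and -0.74, so lower counts on that scale are not particular to the members. The members are brighter than most genes, and bright genes pass the test more often. Among genes with a mean log2 signal of 9 or more, 35.8%, 35.2% and 34.9% were higher and 29.9%, 31.1% and 30.8% were lower. Of the 72 members in that range, 32, 33 and 36 were higher and 5, 4 and 4 were lower. The members' higher counts thus stood nearer to this background than to that of all genes, and their lower counts stood well under both.

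The changes were small. The median log2 change of the members was 0.18, 0.21 and 0.21 in the 3 TF groups, against 0.07, 0.06 and 0.05 over all genes. With a fold change over 1.5 also required, 9, 8 and 8 members were higher, where all genes gave 15.1%, 15.3% and 14.7%, and 2, 1 and 1 were lower, where all genes gave 8.93%, 10.1% and 9.84%. Beyond that fold the members' share was no higher than that of all genes in either direction. The 3 arrays of a TF group all lay above the 3 control arrays for 44, 49 and 50 members and all below for 9, 7 and 7. The same count over all genes was not made, so these counts have no background to be read against.

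Scaling to the poly-A spikes reversed the sign of the members' median change, whereas centring and quantile normalization did not. The 24 poly-A spike probe sets, which read RNA added during preparation, were 0.90, 0.74 and 0.79 log2 units brighter on the TF arrays than on the control arrays, and 3 probe sets for 18S ribosomal RNA were 1.31, 1.05 and 1.20 brighter, with no overlap between TF and control arrays for either. The mean log2 signal of the spikes ran from 6.99 to 7.79 over the 3 control arrays and from 8.03 to 8.28 over the TF arrays. This spread within groups enters every value on the spike scale. Scaling to the spikes moved the median of all genes by -0.90, -0.74 and -0.79, and the members' median became -0.72, -0.53 and -0.58. Centring each array on its median moved the median of all genes by -0.13, -0.10 and -0.11, and left 15, 26 and 22 members higher and 10, 7 and 6 lower. The share of all genes was not counted after centring. Centred counts, here or by complex below, therefore cannot be read as a loss particular to the members. Relative to the median of all genes, the members' median stood at 0.11, 0.15 and 0.15, a difference that a constant per array cannot change. Quantile normalization, which can change it, gave 0.17, 0.24 and 0.26. Which scale fits the RNA of these cultures was not tested, so "higher" and "lower" below are on the deposited scale, and a change should be read against the shift of all genes.

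The 3 comparisons share their control arrays, so calls in common are given as counts only. Of the members, 31 were higher in all 3 TF groups and 4 were lower in all 3 (Atp5g2, Ndufa5, Ndufaf4 and Sdhd). Another 29 passed the test in none with the brightest probe set. Of these, Ndufa3 (0.69, 0.75 and 0.52), Atp5h (0.38, 0.38 and 0.31) and Ndufb5 (0.26, 0.25 and 0.30) were higher in all 3 TF groups with another bright probe set. The other probe set of Uqcrb was lower in all 3. Shared calls were not counted over all genes, so these counts cannot be read as particular to the members. In an F test over the 4 groups, 48 of 81 members differed, next to 49.8% of all genes.

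**Figure D1:**
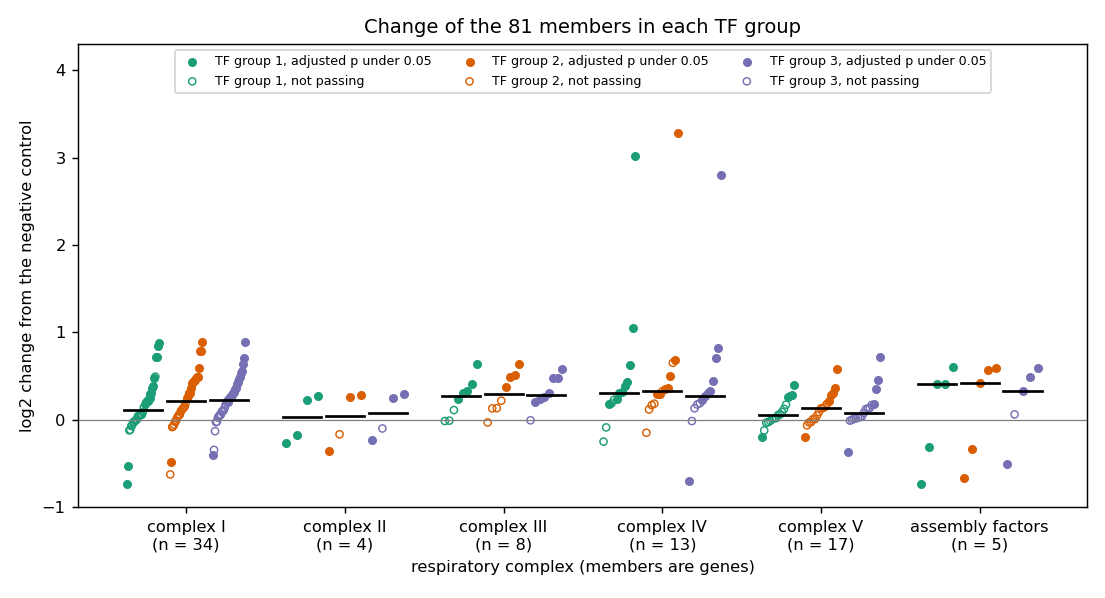
Log2 change of each of the 81 members from the negative control (vertical axis) by complex (horizontal axis) in the 3 TF groups, with 3 arrays per group; filled circles pass the test, open circles do not, and bars are medians. Complexes III and IV have the highest medians among the 5 complexes with the brightest probe set per gene (0.27 to 0.33). For complex III they become 0.13 to 0.25 when all probe sets of a gene, dim ones included, are averaged. In complex IV 1 gene (Cox6b2) stands far above the rest, and complex II splits around 0. With arrays scaled to the poly-A spikes the medians of all 6 sets lie below 0.

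Complex IV showed the widest range. On the deposited scale 9, 7 and 8 of its 13 members were higher in the limma test, and on the spike scale 1, 1 and 1 were higher and 7, 2 and 5 lower. On the deposited scale 0, 0 and 1 were lower, the same counts as at an unadjusted p under 0.05. The mean log2 level of the 13 members relative to the control was 0.51 ± 0.04 in TF group 1, 0.54 ± 0.04 in TF group 2 and 0.44 ± 0.03 in TF group 3 (SD, n = 3 arrays), against 0 ± 0.04 in the control itself. Without Cox6b2 it was 0.30 ± 0.04, 0.32 ± 0.04 and 0.24 ± 0.04, and the median change of all 13 was 0.31, 0.33 and 0.27.

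Cox6b2, an isoform of subunit 6b best known from testis, had the largest change of any member. Its signals were 384, 490.1 and 459 on the control arrays, 3848, 3439 and 3491 on those of TF group 1, 4174, 4268 and 4411 on those of TF group 2, and 2929.5, 3229 and 3117 on those of TF group 3. The TF arrays all stood far above the control arrays, and the groups did not overlap. The fold changes were 8.12, 9.69 and 6.99 (log2 3.02, 3.28 and 2.81, SE 0.0935, limma adjusted p between 2.47e-08 and 5.46e-08). It was the only member that stayed higher in every TF group on the spike scale. It also differed between TF groups, with a change from TF group 2 to TF group 3 of -0.47 log2 units (SE 0.0935, limma adjusted p 0.0144). That call was lost without TF group 2 replicate 3 or without TF group 3 replicate 1.

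The widespread isoform of the same subunit, Cox6b1, moved far less. It had signals of 6732, 6913 and 7120.1 on the control arrays, 8245, 7859 and 8368 on those of TF group 1, 8188, 8548 and 8723 on those of TF group 2, and 7978, 8027 and 8347 on those of TF group 3. Its fold changes were 1.18, 1.23 and 1.17 (SE 0.0537 log2 units, limma adjusted p between 0.00164 and 0.00704). All TF arrays lay above all control arrays for both genes, but the log2 change of Cox6b1 was 0.24, 0.29 and 0.23.

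Cox8a, the small subunit found in most tissues, was the other complex IV member beyond 1.5-fold in all 3 TF groups. It had signals of 2587, 2865 and 2835 on the control arrays, 4367, 4098 and 4363 on those of TF group 1, 4326, 4383 and 4633 on those of TF group 2, and 4409.9, 4538 and 4611 on those of TF group 3. The control and TF arrays did not overlap, and the fold changes were 1.55, 1.61 and 1.64 (log2 SE 0.0611, limma adjusted p between 1.31e-05 and 3.10e-05). Cox8c, an isoform described in testis, was dim and did not pass in any TF group, with log2 changes of 0.23, 0.33 and 0.19 (SE 0.191).

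Cox4i2, the isoform of subunit 4 known from lung and from low oxygen, was dim and noisy. Its signals were 104, 75.3 and 58.1 on the control arrays, 173, 132 and 176 on those of TF group 1, 160.4, 96.9 and 114 on those of TF group 2, and 147, 118 and 145 on those of TF group 3. TF group 2 overlapped with the control, and the adjusted p-values (limma) were 0.00712, 0.0605 and 0.0239 for log2 changes of 1.05, 0.65 and 0.82 (SE 0.245). The main isoform Cox4i1 changed by 0.32, 0.37 and 0.33 with a smaller error (SE 0.0617, limma adjusted p between 0.000989 and 0.0022). A higher fold for Cox4i2 than for Cox4i1 therefore came with an error several times as wide.

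The other complex IV subunits changed modestly. Cox6c changed by 0.39, 0.35 and 0.45 and Cox7a2 by 0.18, 0.30 and 0.27, each passing the limma test in all 3 TF groups. Cox7a2l, which takes part in joining complexes III and IV into supercomplexes, changed by 0.43, 0.50 and 0.31 and passed in all 3 as well. Cox6a1, the liver-type isoform, passed only in TF group 1 with its brightest probe set, with log2 changes of 0.31, 0.19 and 0.13 and limma adjusted p-values of 0.00943, 0.0828 and 0.207. Its other probe set, also bright, passed in all 3 TF groups, with log2 changes of 0.44, 0.41 and 0.40 (limma adjusted p between 0.00137 and 0.00258). Cox5a and Cox5b passed in none, with changes of -0.086, 0.12 and -0.014 and 0.19, 0.17 and 0.18. Both other Cox5a probe sets passed in TF group 2, however, with log2 changes of 0.25 (limma adjusted p 0.0101), read by a probe set nearly as bright, and 0.29 (limma adjusted p 0.0240). A dimmer Cox5b probe set passed in TF group 3, with a log2 change of 0.17 (limma adjusted p 0.0266). Cox7c was read here by a dim probe set with a mean log2 signal of 5.66, and its change of -0.69 in TF group 3 (SE 0.194, limma adjusted p 0.0174) was the only lower call in the complex.

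**Figure D2:**
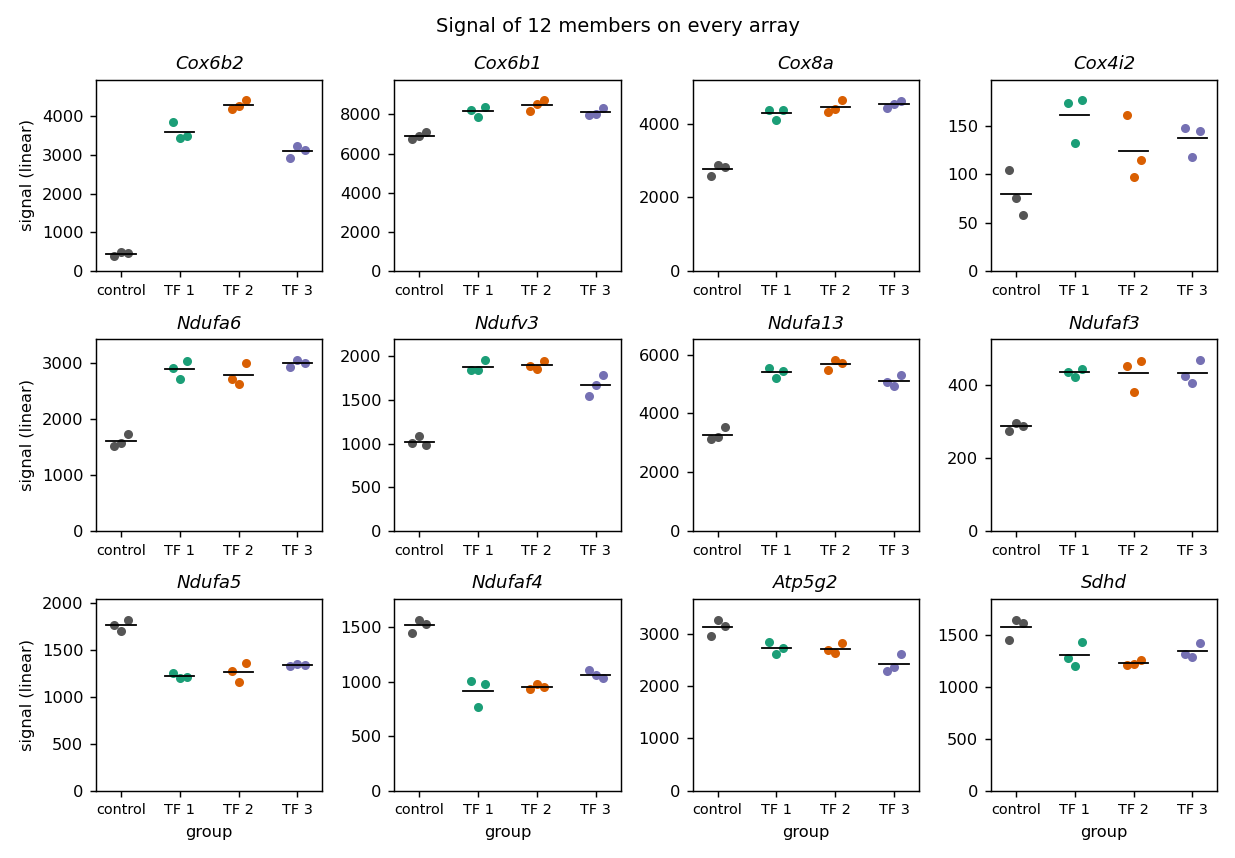
Linear signal (vertical axis, from 0) of 12 members on every array in the 4 groups (horizontal axis); circles are arrays, bars are means of 3 arrays. Cox6b2 lies between 384 and 490.1 in the control and between 2929.5 and 4411 on the TF arrays, while Ndufa5, Ndufaf4, Atp5g2 and Sdhd lie lower on every TF array than on any control array. On the poly-A spike scale Cox6b2 is the only one of the 12 that is higher than the control at an adjusted p under 0.05.

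Complex III had a median of 0.27, 0.30 and 0.29 with the brightest probe set per gene. With all probe sets of a gene averaged the median was 0.13, 0.18 and 0.25, against 0.15, 0.20 and 0.25 for complex I, and without s_at and x_at probe sets (designs that can read related transcripts) it was 0.17, 0.18 and 0.25. Averaging takes in dim probe sets of Uqcrq (mean log2 signals of 5.16 to 5.83) and Uqcr10 (4.74 and 7.10), and a bright one of Uqcrb (10.99). Without s_at and x_at probe sets Uqcrq is read by its probe set at 5.83. Of the 8 members of complex III 5, 4 and 7 were higher on the deposited scale, and on the spike scale 5, 3 and 3 were lower. On the deposited scale limma called 0 lower, also at an unadjusted p under 0.05. When all probe sets of a gene were averaged, 2, 2 and 4 were higher and 1, 1 and 0 lower. Uqcrh, the acidic hinge protein that helps cytochrome c dock, rose most. Its signals were 2716, 3474 and 3586 on the control arrays, 5180.0, 4850.1 and 5051 on those of TF group 1, 4924, 5014 and 5191 on those of TF group 2, and 4566, 4949.9 and 5021 on those of TF group 3, with no TF array as low as any control array. The fold changes were 1.55, 1.56 and 1.5 (log2 SE 0.101, limma adjusted p between 0.000654 and 0.00123).

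The small subunits Uqcr10 and Uqcr11 changed by 0.41, 0.51 and 0.48 and 0.33, 0.49 and 0.47, passing in all 3 TF groups. Uqcrq also passed in all 3 (0.31, 0.37 and 0.30). The 3 other probe sets of Uqcrq were near the low end of the array's range (mean log2 signals of 5.16 to 5.83) and passed in none. They turned its mean change over probe sets to -0.54, -0.30 and -0.096. Of the larger core proteins, Uqcrc1 changed by -0.0089, 0.13 and 0.23 and passed in TF group 3 only, and Uqcrc2 changed by 0.24, 0.13 and 0.21 and passed in TF groups 1 and 3. Uqcrfs1, the Rieske iron-sulphur protein, passed in TF group 3 only (0.11, 0.22 and 0.27). Uqcrb stayed close to the control, with changes of -0.013, -0.030 and -0.0050 (SE 0.0538), but its other bright probe set was lower in all 3 TF groups, with log2 changes of -0.36, -0.25 and -0.26.

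In complex I, 14, 16 and 16 of 34 members were higher and 2, 1 and 1 lower, with 5, 10 and 11 higher after centring on the median, whereas on the spike scale 26, 16 and 18 were lower. The higher members were nearly all accessory subunits. Of the 28 accessory subunits 13, 15 and 16 were higher, and of the 6 core subunits measured 1, 1 and 0 (1, 1 and 1 at an unadjusted p under 0.05). The mean log2 level relative to the control was 0.19 ± 0.02, 0.26 ± 0.04 and 0.27 ± 0.03 for the accessory subunits and 0.04 ± 0.04, 0.08 ± 0.07 and 0.10 ± 0.05 for the core (SD, n = 3 arrays). The difference between core and accessory subunits was not tested.

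Ndufv3 and Ndufa6 led the accessory subunits. Ndufv3, which sits at the NADH-binding tip, had signals of 1002, 1081 and 986 on the control arrays, 1837, 1841 and 1956 on those of TF group 1, 1893, 1848 and 1940.2 on those of TF group 2, and 1548, 1673 and 1785 on those of TF group 3. Its fold changes were 1.84, 1.85 and 1.63 (log2 SE 0.0681, limma adjusted p between 5.77e-06 and 2.88e-05). Ndufa6, a member of the LYR protein family in the matrix arm, had signals of 1517, 1577 and 1736 on the control arrays, 2916, 2704 and 3030.5 on those of TF group 1, 2712, 2623 and 3004 on those of TF group 2, and 2929, 3052 and 2994 on those of TF group 3. Neither gene's TF arrays overlapped with the control arrays, and Ndufa6 changed 1.79, 1.73 and 1.86 fold (log2 SE 0.0769, limma adjusted p between 1.31e-05 and 2.86e-05).

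Ndufa13 (also known as GRIM-19) and Ndufa1, both of which span the inner membrane, followed. Ndufa13 had signals of 3131, 3193 and 3523 on the control arrays, 5554, 5212 and 5442 on those of TF group 1, 5485, 5819 and 5722 on those of TF group 2, and 5059, 4929 and 5295 on those of TF group 3. Its folds were 1.65, 1.73 and 1.55 (log2 SE 0.0634, limma adjusted p between 7.86e-06 and 3.57e-05). Ndufa1, named here after its values were seen, changed 1.65, 1.51 and 1.47 fold (log2 SE 0.0551) and so crossed 1.5-fold in TF groups 1 and 2 only. Ndufa4 carries a complex I symbol, although its protein has since been assigned to complex IV, and it changed by 0.22, 0.31 and 0.41 log2 units, with the call in TF group 1 lost in 10 of the 12 fits without 1 array.

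Ndufa5, an accessory subunit of the matrix arm, went the other way. Its signals were 1766, 1699.9 and 1819 on the control arrays, 1249, 1197 and 1209 on those of TF group 1, 1278, 1160.0 and 1361 on those of TF group 2, and 1326, 1346 and 1339 on those of TF group 3. Every TF array lay below every control array, and the signal was 1.45, 1.39 and 1.32 fold lower (log2 -0.53, -0.48 and -0.40, SE 0.0656, limma adjusted p between 0.000147 and 0.000921). Ndufb1 was dimmer and less certain, with a log2 change of -0.73 in TF group 1 (SE 0.246, limma adjusted p 0.0402) and no call in TF groups 2 and 3. The call in TF group 1 was lost in 8 of the 12 fits that left out 1 array.

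The core subunits, named here after their values were seen, stayed near the control. Ndufv1 and Ndufv2, which take electrons from NADH, changed by 0.0071, 0.10 and 0.20 and -0.023, -0.074 and 0.10. Ndufs1, Ndufs3 and Ndufs7 changed by -0.070, -0.022 and 0.11, by -0.061, 0.040 and 0.027 and by -0.11, -0.054 and 0.039, and none of these 5 genes passed the limma test in any TF group with its brightest probe set. Another bright probe set of Ndufv2 was lower in TF group 1, with a log2 change of -0.19 (limma adjusted p 0.0135). Ndufs8 was the exception with the brightest probe set: its signals were 1966, 2473 and 2233 on the control arrays, 3164, 3432 and 2703 on those of TF group 1, 3443, 2784 and 3166 on those of TF group 2, and 2261, 2409 and 2426 on those of TF group 3. The arrays of TF groups 1 and 2 lay above those of the control, and those of TF group 3 among them (log2 0.48, 0.49 and 0.094, SE 0.119, limma adjusted p 0.00985, 0.00797 and 0.589). Of the 6 probe sets of Ndufs8, only this 1 passed in any TF group, so the higher core calls rest on it. Those nearly as bright changed by -0.023, 0.029 and 0.016 and by -0.052, 0.046 and -0.032.

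The 5 Ndufaf genes, which help to build complex I and are not part of it, split. On the deposited scale 3 were higher in each TF group (Ndufaf1, Ndufaf3 and Ndufaf7) and 2, 2 and 1 lower, and on the spike scale 3, 2 and 2 were lower. Ndufaf3 and Ndufaf4, which are known to act together on an early intermediate of the matrix arm, moved in opposite directions. Ndufaf3 had signals of 276, 296 and 289 on the control arrays, 437, 424 and 445 on those of TF group 1, 452, 382 and 467 on those of TF group 2, and 425, 407 and 469 on those of TF group 3, with folds of 1.52, 1.51 and 1.51 (log2 SE 0.0865, limma adjusted p between 0.000392 and 0.000412). Ndufaf4 had signals of 1451, 1571 and 1535 on the control arrays, 1011, 766 and 984 on those of TF group 1, 936, 983 and 949 on those of TF group 2, and 1107, 1062 and 1034 on those of TF group 3, which is 1.66, 1.59 and 1.42 fold lower (log2 SE 0.0999, limma adjusted p between 0.000279 and 0.00266). For neither gene did the TF arrays overlap with the control arrays.

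Ndufaf5, which modifies the core subunit Ndufs7 during assembly, separated the TF groups. Its signals were 332, 354 and 344 on the control arrays, 282, 275 and 272 on those of TF group 1, 292, 269 and 258 on those of TF group 2, and 332, 354 and 393 on those of TF group 3. It was lower than the control in TF groups 1 and 2 and close to it in TF group 3 (log2 -0.32, -0.33 and 0.063, SE 0.0752). TF group 3 exceeded TF group 2 by 0.40 log2 units (limma adjusted p 0.0115) and TF group 1 by 0.38 (limma adjusted p 0.00972).

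Complex II, which links the citric acid cycle to the chain, had no common direction on the deposited scale, with 2 members higher in each TF group and 2, 1 and 1 lower, while on the spike scale 4, 2 and 3 were lower. Sdha, the flavoprotein that oxidises succinate, changed by 0.23, 0.28 and 0.26 (SE 0.0536, limma adjusted p between 0.002 and 0.00669). The other Sdha probe set, nearly as bright, changed by 0.15, 0.090 and 0.23 and passed in TF group 3 only (limma adjusted p 0.118, 0.333 and 0.0206). Sdhc, a membrane anchor, changed by 0.28, 0.26 and 0.29 (SE 0.0769, limma adjusted p between 0.0128 and 0.0221). The other anchor, Sdhd, had signals of 1456, 1647 and 1615 on the control arrays, 1282, 1206 and 1435 on those of TF group 1, 1212, 1221 and 1259 on those of TF group 2, and 1321, 1291 and 1419.7 on those of TF group 3. It was 1.2, 1.28 and 1.17 fold lower, with every TF array below every control array (log2 SE 0.0797, limma adjusted p between 0.00571 and 0.048), although the calls in TF groups 1 and 3 were lost in 4 and 8 of the 12 fits without 1 array. Sdhb, the iron-sulphur subunit, passed in TF group 1 only (log2 -0.17, -0.16 and -0.098, SE 0.0603, limma adjusted p 0.0492, 0.055 and 0.24), and that call was lost in 11 of 12 such fits.

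In complex V, 3, 5 and 4 of 17 members were higher, near the 25.4%, 25% and 24.7% of all genes, and 1 was lower in each TF group, whereas on the spike scale 16, 11 and 14 were lower. Atp5h, not among the higher members, was higher in every TF group with its other bright probe set. Most of the catalytic head stayed near the control: Atp5a1 (alpha) changed by 0.020, -0.026 and -0.0085 and Atp5b (beta) by 0.0060, 0.049 and 0.14. Atp5c1 (gamma) changed by -0.026, -0.062 and 0.00021 and Atp5d (delta) by -0.12, -0.029 and 0.031, and none of these passed in any TF group. The 95% confidence interval of the beta subunit's change in TF group 3, the largest of these, was -0.024 to 0.30. A dimmer Atp5a1 probe set (mean log2 signal 9.46), however, was lower in TF group 3, with a log2 change of -0.32 (limma adjusted p 0.0145). Atp5e (epsilon) was the exception in the head, with signals of 2266, 2526 and 2576 on the control arrays, 3420.0, 2968 and 3308 on those of TF group 1, 2857, 2716 and 2953 on those of TF group 2, and 2619, 2652 and 2743 on those of TF group 3. Its log2 changes were 0.40, 0.21 and 0.12 (SE 0.075, limma adjusted p 0.00215, 0.0482 and 0.237), the call in TF group 2 was lost in 10 of the 12 fits without 1 array, and the change from TF group 1 to TF group 3 was -0.27 (limma adjusted p 0.0425).

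Of the 5 small membrane subunits of complex V, 2, 3 and 3 were higher on the deposited scale. Atp5md, a small subunit known for its part in pairing ATP synthase into dimers, had signals of 1530.1, 1776 and 1890.1 on the control arrays, 2149, 1948 and 2142 on those of TF group 1, 2766, 2565 and 2426 on those of TF group 2, and 3314, 2998 and 2319 on those of TF group 3. Its log2 changes were 0.27, 0.58 and 0.72 (SE 0.134, limma adjusted p 0.15, 0.00618 and 0.00186). Atp5l and Atp5k (subunits g and e) changed by 0.26, 0.36 and 0.45 and 0.28, 0.31 and 0.35 and passed in all 3 TF groups.

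The c ring is encoded by 3 genes whose mature proteins are the same, and limma called 1 of them. Atp5g2 had signals of 2959, 3272 and 3146 on the control arrays, 2837, 2607 and 2723 on those of TF group 1, 2698, 2642 and 2818 on those of TF group 2, and 2290.0, 2373 and 2616 on those of TF group 3. Every TF array was lower than every control array, by 1.15, 1.15 and 1.29 fold (log2 SE 0.07, limma adjusted p 0.0479, 0.0463 and 0.00224), and the calls in TF groups 1 and 2 were lost in 10 and 9 of the 12 fits without 1 array. Atp5g1 and Atp5g3 changed by -0.013, 0.090 and 0.024 and 0.055, 0.0094 and 0.015 and passed in none.

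**Figure D3:**
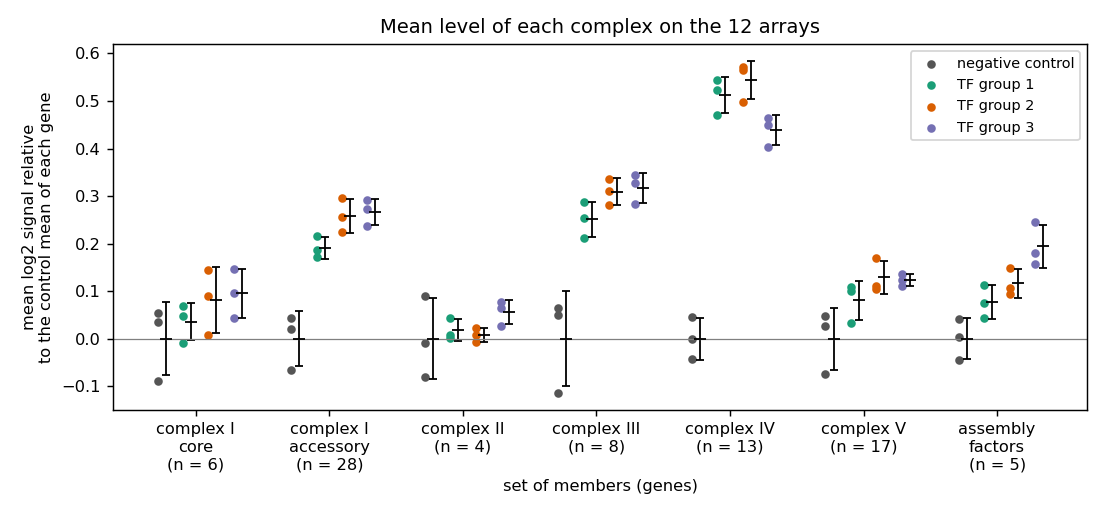
Mean log2 signal of the members of each complex on each of the 12 arrays, relative to each gene's control mean (vertical axis, log2 units), with n the number of genes; circles are arrays and bars give mean ± SD of 3 arrays. Complex IV is highest on the deposited scale (0.44 to 0.54), but without Cox6b2 its mean is 0.24 to 0.32, in the range of complex III (0.25 to 0.32) and the complex I accessory subunits (0.19 to 0.27); on the spike scale the median change of each complex lies below 0.

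Few members separated the TF groups from each other. TF group 2 against TF group 1 gave 2 higher members (Ndufb3 and Cox5a) and 0 lower by limma, beside 3.91% and 4.31% of all genes, and at an unadjusted p under 0.05 these counts were 9 and 2. TF group 3 against TF group 2 gave 1 higher (Ndufaf5) and 1 lower (Cox6b2), beside 5.15% and 4.79% of all genes. TF group 3 against TF group 1 gave 4 higher (Ndufaf5, Ndufb8, Ndufb10 and Uqcrc1) and 1 lower (Atp5e), beside 7.22% and 8.07% of all genes. Ndufb3 had signals of 1462, 1415 and 1485 on the control arrays, 1599.5, 1645 and 1568 on those of TF group 1, 1892, 1951 and 2018 on those of TF group 2, and 1826, 1847 and 1766 on those of TF group 3. It rose by 0.28 from TF group 1 to TF group 2 (SE 0.0515, limma adjusted p 0.0106). Cox5a rose by 0.21 in the same comparison (SE 0.0516, limma adjusted p 0.0462). Ndufb10 and Ndufb8, both of the membrane arm, exceeded their TF group 1 level in TF group 3 by 0.30 and 0.32 log2 units. The number higher in TF group 2 over TF group 1 fell to 1 in 11 of the 12 fits without 1 array, and the lower Atp5e call in TF group 3 was lost in 9 of them. The share of members was near or under that of all genes in each of these comparisons.

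The muscle isoforms of complex IV, which the rule leaves out, are given as values. Cox6a2, the heart and skeletal muscle form of subunit 6a, had signals of 178, 117 and 144 on the control arrays, 311, 269 and 318 on those of TF group 1, 245, 316 and 212 on those of TF group 2, and 208, 235 and 219.9 on those of TF group 3, with log2 changes of 1.05, 0.82 and 0.62 that passed in all 3 TF groups (limma adjusted p 0.00101, 0.00421 and 0.0191). Cox7a1 had signals of 26, 3.15 and 17.8 on the control arrays, 35.6, 22.5 and 43.6 on those of TF group 1, 29.4, 43.6 and 38.8 on those of TF group 2, and 73.7, 87.3 and 91.4 on those of TF group 3 and passed in TF group 3 alone (limma adjusted p 0.0984, 0.0684 and 0.00623). Since its control signals were all below 32, its mean in TF group 3 is given as at least 2.62-fold higher, taken against 32. Cox8b stayed at signals up to 32 on each array and passed in none. The signals of Cox7a1 and Cox8b stand near the low end of the array's range, where replicate error is wide. On the spike scale 1 of these 3 genes passed, in TF group 3.

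Other genes of the chain and of mitochondrial upkeep were read from lists of their own, to be set beside the 25.4%, 25% and 24.7% of all genes that were higher and the 18%, 19.3% and 19% that were lower. Among 30 measured genes for cytochrome c and for assembly of the complexes, 11, 11 and 12 were higher and 4, 4 and 3 lower on the deposited scale, and 23, 19 and 18 were lower on the spike scale. Cyc1, the haem subunit of complex III that the symbol rule does not reach, had signals of 2786, 2964 and 3065 on the control arrays, 2086, 2045 and 2125 on those of TF group 1, 2135, 2238 and 2337 on those of TF group 2, and 2395, 2384 and 2391 on those of TF group 3. It was lower in all 3 TF groups (log2 -0.49, -0.39 and -0.30, limma adjusted p between 9.95e-05 and 0.00236), as was Cycs, cytochrome c itself (-0.63, -0.38 and -0.29, limma adjusted p between 0.000114 and 0.0116). Etfdh, which feeds electrons from fatty acid oxidation into the chain, rose by 0.90, 0.96 and 1.71 and Surf1, a complex IV assembly factor, by 0.80, 0.89 and 0.87. Sdhaf4, which serves complex II assembly, rose by 0.81, 0.82 and 0.71.

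The machinery that makes and imports mitochondrial proteins had more lower than higher genes on the deposited scale. Of 74 genes for mitochondrial ribosomal proteins, 5, 7 and 5 were higher and 42, 33 and 36 lower, with median log2 changes of -0.30, -0.22 and -0.23, and on the spike scale 73, 65 and 68 were lower. Mrpl12, Mrps6 and Mrps18b changed by -0.96, -0.83 and -0.88, by -0.97, -0.78 and -0.78 and by -0.96, -0.83 and -1.03. Mrpl39, Mrpl41 and Mrpl43 went the other way, by 0.29, 0.37 and 0.37, by 0.21, 0.33 and 0.35 and by 0.16, 0.18 and 0.20. Of 23 protein import genes, 2, 3 and 5 were higher and 12, 13 and 13 lower, with medians of -0.28, -0.26 and -0.19, and on the spike scale 23, 18 and 20 were lower. Timm8a1, a small chaperone of the intermembrane space, changed by -1.45, -0.92 and -1.03. Timm50, of the inner membrane translocase, changed by -0.86, -0.90 and -0.95 and Tomm70a, an outer membrane receptor, by -0.89, -0.62 and -0.64. Timm8b and Tomm7 rose, by 0.26, 0.41 and 0.61 and 0.30, 0.41 and 0.30. Relative to the median of all genes, the medians were -0.37, -0.28 and -0.29 for the ribosomal proteins and -0.35, -0.32 and -0.24 for import, and after quantile normalization -0.33, -0.24 and -0.22 and -0.26, -0.26 and -0.20, on the opposite side of it from the members.

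Of 17 regulators of mitochondrial biogenesis, 1, 1 and 2 were higher and 4, 3 and 4 lower on the deposited scale, the latter near the share of all genes, and 11, 11 and 12 were lower on the spike scale. Esrra, an orphan receptor that drives genes of oxidative metabolism, had signals of 220.0, 205 and 192 on the control arrays, 365, 334 and 266 on those of TF group 1, 305, 277 and 291 on those of TF group 2, and 423, 331 and 296 on those of TF group 3 and rose by 0.63, 0.50 and 0.75 (limma adjusted p between 0.00277 and 0.0224). Tfam, which packages mitochondrial DNA and takes part in its transcription, had signals of 678, 719 and 671 on the control arrays, 399.7, 512 and 538 on those of TF group 1, 534, 462 and 489.9 on those of TF group 2, and 464, 383 and 459 on those of TF group 3 and changed by -0.52, -0.48 and -0.67 (limma adjusted p between 0.00177 and 0.0109). Pprc1, a coactivator of the PGC-1 family, changed by -0.76, -0.82 and -0.59 (limma adjusted p between 2.26e-05 and 0.000215). Ppargc1a was dim, with signals from 41.8 to 112, and did not pass in any TF group. Nrf1 and Gabpa, whose products bind many respiratory gene promoters, did not pass either, with log2 changes of -0.41, -0.21 and -0.33 and 0.056, 0.029 and -0.26.

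**Figure D4:**
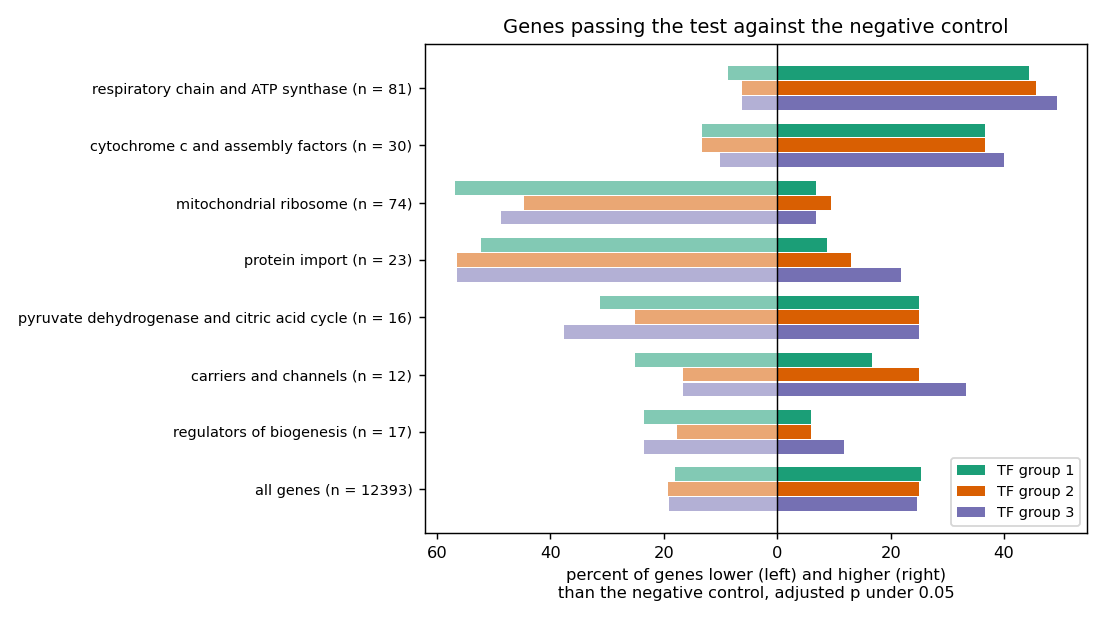
Percent of genes higher (to the right) and lower (to the left, paler) than the negative control at an adjusted p under 0.05 (horizontal axis) for the members, 6 other mitochondrial lists and all genes (vertical axis), in the 3 TF groups with 3 arrays each. The members have more higher than lower genes and the mitochondrial ribosome and import lists the reverse, on the deposited scale; on the spike scale, which moves all genes down, each list has more lower than higher genes.

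Promoter windows were searched for letters known from respiratory genes, since Nrf1, GABP (an ETS factor) and YY1 are the factors most often tied to them. RefSeq windows (GRCm38.p6) from 250 bases before to 50 after a start were at hand for 68 of the 81 members, 73 windows in all, and for 9883 array genes, 12560 windows. Both strands were read. CCGGAAG, an ETS core, was in 24.7% of the members' windows and 14% of all windows. GCGCATGCG, an NRF1 core, was in 12.3% and 2.87%, and AAGATGGCG, a YY1 core, in 8.22% and 2.31%. The last 3 letters of the ETS core are the first 3 of the YY1 core, and no member window had the cores overlapping there. Of members higher in all 3 TF groups with a window, 8 of 26 held the ETS core, 3 the NRF1 core and 1 the YY1 core. Of those that passed in none, 4 of 23 held the ETS core, 1 the NRF1 core and 4 the YY1 core. All 4 members lower in all 3 TF groups had a window, and 1 held the ETS core, 2 the NRF1 core and 0 the YY1 core. A match is a description of letters and says nothing of binding in these cells.

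A set of 4 windows is shown, written along the gene's own strand with matched letters in capitals. Cox6b2 (chr7:4753045-4753344, minus strand) and Cox6b1 (chr7:30626065-30626364, minus strand) encode the same subunit and differed most in their change. Only the Cox6b1 window holds a match, to the ETS core on the opposite strand.
Cox6b2: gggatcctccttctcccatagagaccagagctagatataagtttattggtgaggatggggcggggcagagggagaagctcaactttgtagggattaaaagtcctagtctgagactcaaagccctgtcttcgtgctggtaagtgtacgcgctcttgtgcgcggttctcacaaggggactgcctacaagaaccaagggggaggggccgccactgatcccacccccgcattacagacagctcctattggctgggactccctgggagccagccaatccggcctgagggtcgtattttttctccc
Cox6b1: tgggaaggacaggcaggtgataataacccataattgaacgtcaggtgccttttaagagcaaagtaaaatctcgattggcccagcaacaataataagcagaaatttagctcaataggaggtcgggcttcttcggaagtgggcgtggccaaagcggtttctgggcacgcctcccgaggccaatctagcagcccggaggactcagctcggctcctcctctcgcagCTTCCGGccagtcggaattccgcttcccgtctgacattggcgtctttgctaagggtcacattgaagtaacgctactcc

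Uqcr11 (chr10:80406772-80407071, minus strand), which rose in all 3 TF groups on the deposited scale, and Ndufaf4 (chr4:24897833-24898132, plus strand), which fell in all 3, both hold the NRF1 core, and Uqcr11 also holds the ETS core. The same core thus stood in the window of a member of each direction.
Uqcr11: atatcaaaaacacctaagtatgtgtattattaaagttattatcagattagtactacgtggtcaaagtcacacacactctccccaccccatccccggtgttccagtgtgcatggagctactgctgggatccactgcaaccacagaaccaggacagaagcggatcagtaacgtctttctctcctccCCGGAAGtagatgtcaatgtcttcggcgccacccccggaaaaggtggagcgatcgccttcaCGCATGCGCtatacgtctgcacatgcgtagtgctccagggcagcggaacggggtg
Ndufaf4: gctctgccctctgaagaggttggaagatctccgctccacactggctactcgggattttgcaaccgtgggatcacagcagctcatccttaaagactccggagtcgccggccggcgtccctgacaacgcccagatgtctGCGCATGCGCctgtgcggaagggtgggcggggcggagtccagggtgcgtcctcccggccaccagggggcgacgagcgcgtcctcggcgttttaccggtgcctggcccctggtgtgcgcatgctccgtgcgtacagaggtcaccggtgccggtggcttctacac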

How the data were processed

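Expression was measured on 12 arrays, 3 for each of 4 groups. The authors deposited 1 linear signal intensity per probe set and array. RMA and Partek are named in the notes without a version. RMA gives log2 values, so the method behind these intensities is not known, and the log2 unit assumed in planning did not hold. The 22690 probe sets include 64 controls, left out of tests. The other 22626 were log2-transformed, not rescaled, and fitted with limma 3.58.1 in R 4.3.3 (lmFit and eBayes, 1 mean per group, no covariate), with Benjamini-Hochberg adjustment over all of them. Of these, 20380 carry 1 symbol, 691 several and 1555 none in the platform annotation, and all 81 members have a RefSeq entry. Members and lists were chosen with earlier results of these data known. Replicate numbers were not used to pair the samples: deviations of same-numbered arrays correlated between -0.023 and 0.051, and those of differently numbered ones between -0.043 and 0.035. This does not show whether same-numbered arrays shared a preparation. Of 45 members with more than 1 probe set, none had another probe set that passed in the opposite direction.

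Named in the text are, per complex, the 2 members with the largest and the 2 with the smallest mean change, those beyond 1.5-fold in all TF groups, up to 3 per direction between TF groups, the isoform families and complex II, and genes from up to 3 per direction of each other list that passed in all 3 TF groups. Pdhb, Ogdh and Slc25a20 (higher) and Idh3a, Fh1, Vdac3 and Tfb1m (lower) also met the rule for the lists, and their values are not given. Other members (the complex I core, Ndufa1, Ndufa3, Ndufb5, Ndufaf7, Atp5a1, Atp5b, Atp5c1, Atp5h, Atp5k, Cox5b, Cox6c, Cox8c, Uqcr11, Uqcrq, Uqcrc2 and Uqcrfs1) and Cyc1, Ppargc1a, Nrf1, Gabpa and Slc25a4 were named after their values were seen. The steps were tested on simulated data. Alternatives were other scalings, low-signal treatments, fits, thresholds, probe sets, members and each array left out. The number of arrays limits the precision.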

Additional observations from a re-analysis of the deposited data

Results flagged for a closer look

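Probe sets annotated with several symbols were not used for the members, and 2 of them were brighter than the control in each TF group at a limma adjusted p under 0.05. The probe set shared by Ndufs5 and its pseudogene changed by 0.26, 0.33 and 0.32 log2 units in TF groups 1, 2 and 3. The probe set shared by Ndufs6 and Ndufs6b changed by 0.24, 0.30 and 0.28. Which of the annotated genes the signal comes from was not tested.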

How the results depend on the processing

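Scaling to the spikes reverses the sign of the members' median, as given with the report, and the cause of the brighter spikes was not tested. With 3 arrays per group, small changes can fall on either side of the threshold. Averaging probe sets or leaving out cross-hybridising designs left the counts against the control close to those reported over all members, but not in complex III, as given with the report, or in complex II, where 1, 1 and 1 and 1, 1 and 2 were then higher. Most calls between TF groups rest on single members and moved with many settings.

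With each array centred on its median, 15, 26 and 22 members were higher, the medians were 0.046, 0.11 and 0.10, and the comparisons between TF groups gave 1 higher in TF group 2 against TF group 1 and 0 lower in TF group 3 against TF group 1. Scaled to the spikes, 1, 1 and 1 were higher and 61, 36 and 45 lower, the medians were -0.72, -0.53 and -0.58, and no comparison between TF groups called a member (0 by limma). The spread of the spikes within groups enters each gene's error on that scale, so the lack of calls cannot show that the TF groups are alike. A fold over 1.5 gave 9, 8 and 8 higher and 2, 1 and 1 lower with an adjusted p, and 9, 9 and 8 higher and 2, 2 and 1 lower with an unadjusted p under 0.05, and 0 between TF groups. Fits of only the groups compared gave 23, 35 and 27 higher and 4, 4 and 5 lower. Between TF groups they gave 0 calls other than the lower Cox6b2. Without the assembly factors, 3 were lower in TF group 2, and 0 were higher in TF group 3 against TF group 2. The bright members, a choice made after seeing the data, also gave 0 there.

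Between TF groups, the count higher in TF group 2 against TF group 1 became 4 with quantile normalization or a floor of 32, and 5 with an intensity trend. For TF group 3 against TF group 2 it became 2 higher and 2 lower with the floor, 2 higher and 3 lower with the trend, 2 lower with an offset of 50, with dim probe sets left out or without moderation, and 2 higher with averaged probe sets or without s_at and x_at probe sets. For TF group 3 against TF group 1 it became 10 higher and 2 lower with the floor, 13 and 3 with the trend, 8 and 2 with dim probe sets left out or without moderation, 2 lower with the offset, 7 higher with array weights or averaged probe sets, 8 higher in a table of genes only, and 0 lower without s_at and x_at probe sets.

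With the replicate number as a block, 33, 38 and 39 members were higher and 5, 5 and 5 lower. Between TF groups the block left 1 higher in TF group 2 against TF group 1, 1 higher and 1 lower in TF group 3 against TF group 2, and 3 higher and 0 lower in TF group 3 against TF group 1. Same-numbered arrays deviated together in no pair (0 of 18 correlations over 0.1).

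Leaving out 1 array gave 30 to 36, 33 to 40 and 35 to 41 higher members and 3 to 7, 4 to 6 and 3 to 5 lower, with medians of 0.12 to 0.21, 0.16 to 0.24 and 0.18 to 0.24. Between TF groups it gave 1 to 2 higher and 0 to 0 lower, 1 to 1 higher and 0 to 1 lower, and 2 to 6 higher and 0 to 1 lower, for TF group 2 against 1, TF group 3 against 2 and TF group 3 against 1. The lower count in TF group 1 fell to 3 without control replicate 2 or 3 or TF group 1 replicate 1, and to 4 without TF group 1 replicate 2 or 3 or TF group 3 replicate 1 or 2. That of TF group 3 fell to 3 without control replicate 2. The 4 higher in TF group 3 against TF group 1 fell to 2 without TF group 1 replicate 2 or TF group 3 replicate 1. The 2 higher in TF group 2 against TF group 1 fell to 1 in 11 of the 12 fits, all but that without control replicate 2. The 1 lower in TF group 3 against TF group 1 was lost in 9 of the 12, all but those without control replicate 1 or TF group 1 replicate 2 or 3, and the 1 lower in TF group 3 against TF group 2 without TF group 2 replicate 3 or TF group 3 replicate 1. Calls lost in 3 or 4 of the 12 fits were those of Atp5k in TF groups 1 and 2, Cox4i2, Cox7a2l, Cox7c, Uqcrc1 and Uqcrfs1 in TF group 3, Cox7a2 in TF group 1 and Sdhc in TF groups 1 and 2.

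Ndufa3, Ndufb5 and Atp5h, named for their other probe sets, are not counted here. Of 171 changes of the 57 named members against the control, 119 changed sign on the spike scale, and 112 of these, in 46 members, passed the test on 1 of the scales at least. The other 7 were the 3 of Cox8c and those of Cox4i2, Cox5b, Cox6a1 and Uqcrfs1 in TF group 2. Sign changes with no call on either side came with centring (21), quantile normalization (9), averaged probe sets (5), array weights (2), no s_at and x_at probe sets (2) and the fits without 1 array (38 of 2052). Apart from the spike scale, only Uqcrq lost a call with a change of sign, to -0.54, -0.30 and -0.096 with averaged probe sets and to -0.25 and -0.23 in TF groups 1 and 3 without s_at and x_at probe sets. The values of the 112 follow as log2 changes in TF groups 1, 2 and 3 on the spike scale unless a group is named. In complex I these were Ndufa1 (-0.18, -0.15 and -0.24), Ndufa13 (-0.18 and -0.16 in TF groups 1 and 3), Ndufa4 (-0.68, -0.43 and -0.38), Ndufa6 (-0.057 in TF group 1) and Ndufb10 (-0.65, -0.31 and -0.25). Then came Ndufb3 (-0.76, -0.31 and -0.47), Ndufb8 (-0.86, -0.54 and -0.43), Ndufs1 (-0.68 in TF group 3), Ndufs3 (-0.70 and -0.77 in TF groups 2 and 3) and Ndufs7 (-0.75 in TF group 3). The last were Ndufs8 (-0.42, -0.24 and -0.70), Ndufv1 (-0.89, -0.64 and -0.59), Ndufv2 (-0.69 in TF group 3) and Ndufv3 (-0.022 and -0.088 in TF groups 1 and 3). In complex II these were Sdha (-0.67, -0.45 and -0.54) and Sdhc (-0.62, -0.48 and -0.50). In complex III these were Uqcr10 (-0.49, -0.22 and -0.31), Uqcr11 (-0.57, -0.25 and -0.32), Uqcrc1 (-0.60 and -0.56 in TF groups 2 and 3), Uqcrc2 (-0.66, -0.61 and -0.59) and Uqcrfs1 (-0.79 and -0.53 in TF groups 1 and 3). Then came Uqcrh (-0.26, -0.097 and -0.21) and Uqcrq (-0.59, -0.37 and -0.49). In complex IV these were Cox4i1 (-0.57, -0.37 and -0.47), Cox5a (-0.62 in TF group 2), Cox5b (-0.71 and -0.62 in TF groups 1 and 3), Cox6a1 (-0.59 and -0.66 in TF groups 1 and 3) and Cox6b1 (-0.66, -0.44 and -0.56). Then came Cox6c (-0.51, -0.38 and -0.35), Cox7a2 (-0.72, -0.44 and -0.52), Cox7a2l (-0.46, -0.24 and -0.48) and Cox8a (-0.27, -0.050 and -0.081). In complex V these were Atp5a1 (-0.88 in TF group 1), Atp5b (-0.89, -0.69 and -0.66), Atp5c1 (-0.79 in TF group 3), Atp5d (-0.76 in TF group 3) and Atp5e (-0.50, -0.53 and -0.67). Then came Atp5g1 (-0.65 and -0.77 in TF groups 2 and 3), Atp5g3 (-0.84, -0.73 and -0.78), Atp5k (-0.62, -0.43 and -0.44), Atp5l (-0.64, -0.38 and -0.34) and Atp5md (-0.63, -0.16 and -0.071). In the assembly factors these were Ndufaf1 (-0.48, -0.17 and -0.30), Ndufaf3 (-0.30, -0.15 and -0.20), Ndufaf5 (-0.73 in TF group 3) and Ndufaf7 (-0.48, -0.32 and -0.46).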

Other observations

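Genes that supply the chain with substrate and carry its products did not share a direction on the deposited scale. Of 16 genes for pyruvate dehydrogenase and the citric acid cycle, the counts in TF groups 1, 2 and 3 were 4, 4 and 4 higher and 5, 4 and 6 lower, beside 25.4%, 25% and 24.7% of all genes higher and 18%, 19.3% and 19% lower, and on the spike scale 15, 12 and 13 were lower. Idh2, the mitochondrial isocitrate dehydrogenase that makes NADPH, had signals of 1161, 1019 and 1043 on the control arrays, 634, 667 and 664 on those of TF group 1, 497, 424 and 401 on those of TF group 2, and 621, 697 and 663 on those of TF group 3 and changed by -0.71, -1.29 and -0.70 log2 units (limma adjusted p between 3.38e-06 and 0.000197). Dld, the lipoamide dehydrogenase, rose by 0.46, 0.39 and 0.56.

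Of 12 carriers and channels, 2, 3 and 4 were higher and 3, 2 and 2 lower on the deposited scale, and 9, 6 and 8 were lower on the spike scale. Slc25a5, an ADP/ATP carrier common in dividing cells, changed by -0.51, -0.64 and -0.52 (limma adjusted p between 4.43e-05 and 0.00022), and Slc25a4, the carrier of heart and muscle, by 0.0086, 0.096 and 0.11 without passing. Ckmt1, a mitochondrial creatine kinase, was dim, with signals of 18.5, 17.3 and 27.4 on the control arrays, 83.7, 72.1 and 105 on those of TF group 1, 102, 84.3 and 83.4 on those of TF group 2, and 50.1, 51 and 63.8 on those of TF group 3, and its TF arrays all lay above its control arrays.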
